A study of Caenorhabditis elegans with 119 samples.

Results

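Glutathione peroxidases reduce hydrogen peroxide and lipid hydroperoxides with electrons from glutathione, and so belong to the same defence as catalases, peroxiredoxins and superoxide dismutases. The mammalian enzyme GPX4 acts on peroxides of membrane phospholipids, and gpx-1, gpx-2, gpx-6 and gpx-7 of the nematode Caenorhabditis elegans are its homologs. Most mammalian members carry selenocysteine at the active site, while the worm enzymes carry cysteine. The genes described here are the 8 of the worm genome named gpx-1 to gpx-8, out of 46926 genes counted. The rule for membership is the gene name and uses no measured value.

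RNA was sequenced from whole worms at several adult ages, with or without sulforaphane (SFN), an isothiocyanate from broccoli known in mammals as an activator of NRF2, the counterpart of worm SKN-1. The libraries, in 28 groups, held about 50 worms each. All worms were kept at 20 °C on the OP50-1 strain of Escherichia coli, on plates with 51 µM FUdR, which blocks cell division and so the production of live offspring, and 0.25% DMSO, the solvent of SFN. Exposure began on day 1 of adulthood. The dose of SFN is not given in the sources used here. Wild-type N2 was sampled with SFN or with DMSO alone on days 2, 4, 8, 12 and 16, with 4 libraries a group. A further 2 trials of N2, called trial 2 and trial 3, were on DMSO alone at the same ages, again with 4 libraries a group. Strain PX991, which carries daf-16(fx107), was sampled on days 4 and 12 on SFN or DMSO with 4 libraries a group. Strain EU1, which carries skn-1(zu67), was sampled in the same way with 6 libraries a group, except for 5 on SFN on day 4, and its replicates 4, 5 and 6 were collected at other times than the first 3.

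Total counts a library, in units of 1e6 counts, were 0.445 to 12.5 among the N2 libraries with SFN and their controls, 1.07 to 8.61 in trials 2 and 3, 0.585 to 5.46 in PX991 and 2.06 to 10.3 in EU1. When every library was thinned to 444501 counts, 2 stood apart with 7115 and 6660 genes detected, replicate 1 of N2 on DMSO on day 2 and replicate 4 of N2 on DMSO on day 4. PX991 on SFN on day 12, replicate 3, stood apart the other way with 15272 genes. Values without these libraries stand beside the results they enter where they bear on a call. All N2 controls of the SFN experiment on days 2 and 4 showed fewer genes than the SFN libraries of their day. The ranges were 7115 to 10213 on DMSO and 10605 to 10775 on SFN on day 2. On day 4 they were 6660 to 10775 and 11168 to 11320. Leaving out 2 libraries does not remove this difference, and these controls enter every comparison with days 2 and 4 in that experiment. The mRNA of daf-16 was at 52.8 to 175 CPM (counts per 1e6 counts) in PX991 and at 110 to 260 CPM in N2 at the same ages. That of skn-1 was at 83.3 to 150 CPM in EU1 and at 222 to 327 CPM in N2, with no overlap. Neither is a test of the alleles, since no label says whether they change the level of mRNA. Summed markers of intestine, body wall muscle, germline, hypodermis and neurons were above 0 in every library labelled whole worm. Those of pharynx reached 0 CPM in N2 on DMSO on day 4, and those of sperm and coelomocytes reached 0 CPM in several groups.

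Per length of mRNA, gpx-2 was the most abundant member in 27 of 28 groups, and only in N2 on SFN on day 4 did gpx-5 lead. The measure is RPKM, which is CPM per kilobase of exon, summed over the family. By this measure gpx-2 made up 32.9 to 72.3% of the family, gpx-5 4.05 to 45.9% and gpx-1 9.4 to 25%. The other 5 members each stayed under 8.6% in every group. The family sum was lowest in N2 on DMSO on day 16, at 62.2 ± 8.02 RPKM (SD, n = 4), and highest in N2 on SFN on day 4, at 155.8 ± 7.07 RPKM. Between these groups gpx-5 differed more than gpx-2. gpx-2 stood at 43.4 RPKM in the first of these groups and 51.2 RPKM in the second, while gpx-5 stood at 2.52 and 71.5 RPKM.

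**Figure D1:**
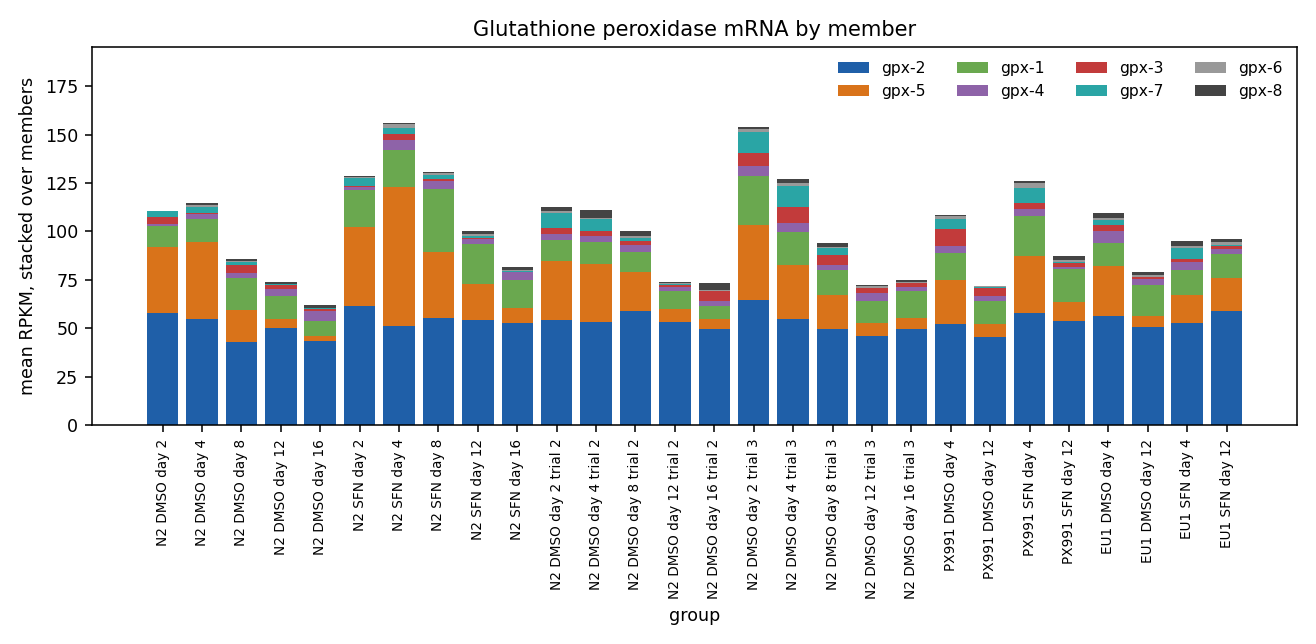
Mean RPKM of each member, stacked, in each of the 28 groups (4 libraries a group, 5 or 6 in EU1; no error bars). The gpx-2 part stays at a similar height in every group. From day 4 onward the gpx-5 part shrinks with age, except in EU1 on SFN. In N2 the mean of gpx-5 is larger on SFN at each age, though the differences on days 2 and 4 did not pass in edgeR.

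gpx-5 and gpx-3 are neighbours. On build WBcel235, gpx-5 (WBGene00007516) lies at X:9584668-9586344 and gpx-3 (WBGene00007517) at X:9587942-9588879, both on the plus strand, with 1597 bases and 0 genes between them. gpx-7 (WBGene00019846) is on the same chromosome at X:7798949-7799780 on the minus strand. gpx-2 (WBGene00011045) lies at II:14866766-14869671 on the plus strand. gpx-4 (WBGene00022377, minus strand) and gpx-6 (WBGene00020373, plus strand) are on chromosome IV, at 2672962-2675015 and 8222202-8223461. gpx-1 (WBGene00009165) and gpx-8 (WBGene00018850) are on chromosome I. The exons of gpx-1 share 90 of their 565 bases with drsh-1 on the opposite strand. The N2 counts with SFN were made without regard to strand, so reads of gpx-1 and drsh-1 cannot be told apart there.

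gpx-5 was higher on SFN in ageing N2. On day 8, gpx-5 was at 14.1, 13.7, 13.8 and 18.8 CPM on DMSO and at 30.02, 30.5, 28.2 and 34.9 CPM on SFN. On day 12, the values were 5.85, 3.94, 3.59 and 3.96 CPM on DMSO and 22.2, 20.9, 13.5 and 12.0 CPM on SFN. On day 16, they were 1.201, 2.12, 2.66 and 3.15 CPM on DMSO and 6.26, 6.78, 7.24 and 8.11 CPM on SFN. At each of these 3 ages, every SFN library was above every DMSO library. The log2 fold change, with its standard error (SE), was 1.06 ± 0.29 on day 8 (2.09-fold, edgeR quasi-likelihood test, adjusted p = 0.022). It was 2.01 ± 0.30 on day 12 (4.03-fold, adjusted p = 7.3e-07) and 1.65 ± 0.35 on day 16 (3.14-fold, adjusted p = 0.00042). The p-values were adjusted over all genes tested, by the method of Benjamini and Hochberg, and the threshold was 0.05.

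The day 8 call ended when any 1 of 5 libraries was left out: SFN replicates 1 and 4 (adjusted p 0.057 and 0.079) or DMSO replicates 1, 2 and 3 (0.086, 0.079 and 0.098). On days 12 and 16, gpx-5 passed under every alternative run. The deposited columns of this N2 experiment carry codes of a letter and a number that no label explains. On day 8 the SFN and DMSO libraries share a number but no letter, and on days 2, 4, 12 and 16 they share no number. So at no age can treatment be told apart from whatever the codes stand for.

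On days 2 and 4 gpx-5 did not pass in edgeR, though on day 4 it passed in DESeq2 (adjusted p = 0.035). On day 2, gpx-5 was at 7.79, 41.5, 34.2 and 41.4 CPM on DMSO and at 47.4, 36.8, 29.1 and 33.7 CPM on SFN. Apart from replicate 1 on DMSO, which is 1 of the libraries that stand apart, the groups covered the same range. The log2 fold change was 0.07 ± 0.28 (adjusted p = 0.94), and -0.14 ± 0.22 without the 2 libraries of few genes. On day 4, gpx-5 was at 34.1, 35.8, 64.8 and 11.04 CPM on DMSO, and at 68.1, 71.9, 51.8 and 67.3 CPM on SFN, the highest mean of all 28 groups. The spread was in the controls, where replicate 3 was as high as an SFN library and replicate 4, of few genes, was lowest. The day 4 change was 0.70 ± 0.28 (adjusted p = 0.093), 0.52 ± 0.21 without the libraries of few genes (adjusted p = 0.084), and 1.10 without DMSO replicate 3 (adjusted p = 0.0072).

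The SFN effect on gpx-5 was larger on days 12 and 16 than on day 2. Exposure began on day 1 of adulthood, so age cannot be told apart from length of exposure. Nor can age be told apart from the column codes, whose numbers on days 12 and 16 are not those of day 2 within a treatment. The SFN effect was larger on day 12 than on day 2 by 1.94 ± 0.41 on the log2 scale (adjusted p = 0.00084), a test of the difference itself, which 6.72% of 12735 genes passed. It was larger on day 16 than on day 2 by 1.58 ± 0.45 (adjusted p = 0.02; 7.88% of genes passed). The day 16 difference missed the threshold without DMSO replicate 1 of day 16 (adjusted p = 0.065). gpx-5 was the only 1 of the 6 tested members to pass in either, although gpx-7 passed in the day 12 difference without DMSO replicate 4 of day 12 (3.20 ± 1.22 and adjusted p = 0.12 with it, 0.05 without).

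**Figure D2:**
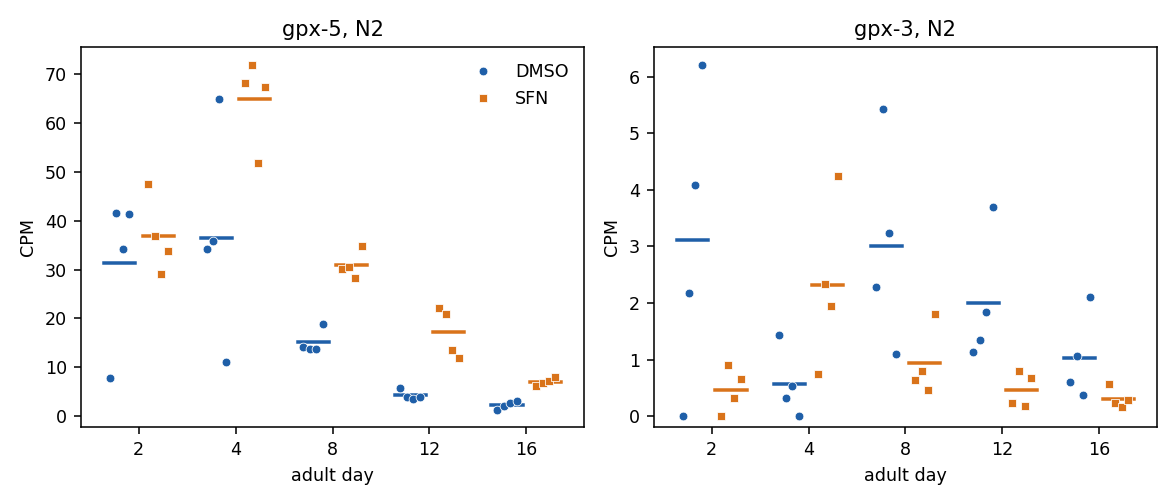
CPM of gpx-5 and gpx-3 in each N2 library by adult day, on DMSO (circles) and SFN (squares), with bars at the group means (n = 4). The gpx-5 points on SFN lie above all control points on days 8, 12 and 16, and the gpx-3 points on SFN lie below all control points on day 12.

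On day 12 gpx-3 fell on SFN while its neighbour gpx-5 rose, the only age at which both passed, and the difference between the genes was not tested. It was at 1.14, 1.34, 1.84 and 3.69 CPM on DMSO and at 0.226, 0.794, 0.178 and 0.680 CPM on SFN, from 104 and 9 counts in all. No SFN library reached the lowest DMSO library. It fell by 2.18 ± 0.69 on the log2 scale (4.52-fold, adjusted p = 0.019), a call that ended without SFN replicate 1 (adjusted p = 0.086), SFN replicate 3 (0.084) or DMSO replicate 4 (0.11). On day 2 gpx-3 was at 0, 2.18, 4.09 and 6.21 CPM on DMSO and at 0, 0.904, 0.324 and 0.657 CPM on SFN, from 60 and 7 counts. The groups shared the value 0, in the DMSO library of few genes and in an SFN library. It fell by 2.62 ± 0.75 (adjusted p = 0.035), and by 2.83 ± 0.75 without the libraries of few genes (adjusted p = 0.013). The day 2 call did not outlast the loss of any 1 SFN library (adjusted p 0.06 to 0.13) or of DMSO replicate 3 (0.052) or 4 (0.096). On days 8 and 16 the values for gpx-3 were -1.73 ± 0.64 (adjusted p = 0.17) and -1.62 ± 0.77 (adjusted p = 0.14), below 0 but past no threshold. On day 4 the sign was the other way, 1.53 ± 0.75 (adjusted p = 0.18), with 12 counts over the 4 DMSO libraries and 23 over the 4 on SFN.

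gpx-7, a GPX4 homolog, was nearly gone from old control worms, and on SFN a trace of it was left on day 12. The 4 DMSO libraries of day 12 held 0, 0, 0 and 2 counts and the 4 SFN libraries held 5, 5, 2 and 3. Every SFN library had more CPM than any DMSO library. The fitted log2 fold change was 3.55 ± 1.02 (adjusted p = 0.0091). The ratio of summed counts per depth was 16.3, with an exact 95% interval of 3.78 to 147 that covers counting error only. By day 16 both groups held 3 counts, a level at which no fold is given.

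The remaining GPX4 homologs did not pass in any SFN comparison of N2. gpx-2 differed little. It was at 53.6, 49.9, 50.8 and 48.1 CPM on DMSO and 67.0, 68.2, 63.9 and 62.0 CPM on SFN on day 8, groups that do not overlap, with a log2 fold change of 0.36 ± 0.12 (adjusted p = 0.11 in edgeR, 0.0048 in DESeq2). On day 16 it was again higher in every SFN library than in every DMSO library, by 0.29 ± 0.12 (adjusted p = 0.086). Without the 2 libraries of few genes these adjusted p were 0.026 and 0.042, and both passed. gpx-1 was at 11.3, 8.01, 11.3 and 6.64 CPM on DMSO and 21.1, 13.4, 14.1 and 25.1 CPM on SFN on day 8. The groups did not overlap on days 8, 12 or 16, and the log2 fold changes were 0.94 ± 0.38, 0.80 ± 0.37 and 0.85 ± 0.39 (adjusted p 0.26, 0.14 and 0.13). With only the 2 groups of an age in the fit, gpx-1 passed on each of these days (adjusted p 0.012, 0.017 and 0.034). gpx-4, which is not among the GPX4 homologs named above, did not pass either. It lay between -0.33 and 0.91 on the log2 scale over the 5 ages (adjusted p 0.25 to 0.97).

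gpx-6, the fourth GPX4 homolog, and gpx-8 had a median of 2 counts a library and passed the filter on low counts in no fit. gpx-6 was at 0.113 to 1.88 CPM over the 28 group means. gpx-8 ran from 0 counts in the 4 libraries of N2 on DMSO on day 2, which allows up to 3 counts over the group, to 1.79 CPM in trial 2 on day 4. With no filter, neither passed in an SFN comparison. gpx-6 was lower on day 16 than on day 2 in the trials (-2.16 ± 0.76, adjusted p = 0.017), and gpx-8 passed between these days in the controls of the SFN experiment (adjusted p = 0.0073), against the 0 counts of day 2.

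Counted over the family, 6 of 8 members were tested in N2. On day 2, 1 fell, against 4.33% of all genes tested that passed in either direction. On day 4, 0 passed in edgeR, against 10.3% of genes, with 2 at an unadjusted p under 0.05, and DESeq2 called 1, gpx-5. On day 8, 1 rose (3.53% of genes passed). On day 12, 2 rose and 1 fell (18.8%), and on day 16, 1 rose (19.3%). Markers of body wall muscle moved with gpx-5. All 4 rose on days 4 and 12, 2 of 4 on day 8 and 3 of 4 on day 16. Their summed level was 364 to 503 CPM on DMSO and 690 to 786 CPM on SFN on day 8, 92.2 to 120 and 412 to 618 CPM on day 12, and 89.1 to 157 and 161 to 390 CPM on day 16. On day 4, when gpx-5 did not pass in edgeR, it was 329 to 735 and 886 to 1010 CPM. The intestine markers moved less on day 12, with 1 of 5 higher. Their summed levels were then 294 to 464 CPM on DMSO and 376 to 432 CPM on SFN. On day 8, 1 of 5 was higher and the sums did not overlap. They were 370 to 458 CPM on DMSO and 544 to 884 CPM on SFN. On day 4, 1 of 5 intestine markers rose, and on day 16, 2 of 5 rose and 1 fell. At both of these ages the intestine sums overlapped. No marker of either list was at 0 in a whole group. Hypodermis markers also moved, with 1 of 2 tested higher on day 12 and 2 of 2 on day 16, and summed levels of 133 to 170 CPM on DMSO and 238 to 304 CPM on SFN on day 12, and 99.9 to 146 and 196 to 225 CPM on day 16. Of the germline markers, 5 of 6 rose on day 16. Ribosomal RNA took 0.560 to 1.05% of counts on DMSO and 2.58 to 3.30% on SFN on day 12, and 0.549 to 0.75% and 1.71 to 2.07% on day 16. On day 2, when gpx-5 did not differ, it took 0.510 to 1.69% and 4.21 to 8.85%. The part of these markers and of ribosomal RNA in the results for gpx-5, gpx-3 and gpx-7 was not tested. In RNA from whole worms, fewer cells of a type and less RNA per cell cannot be told apart.

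**Figure D3:**
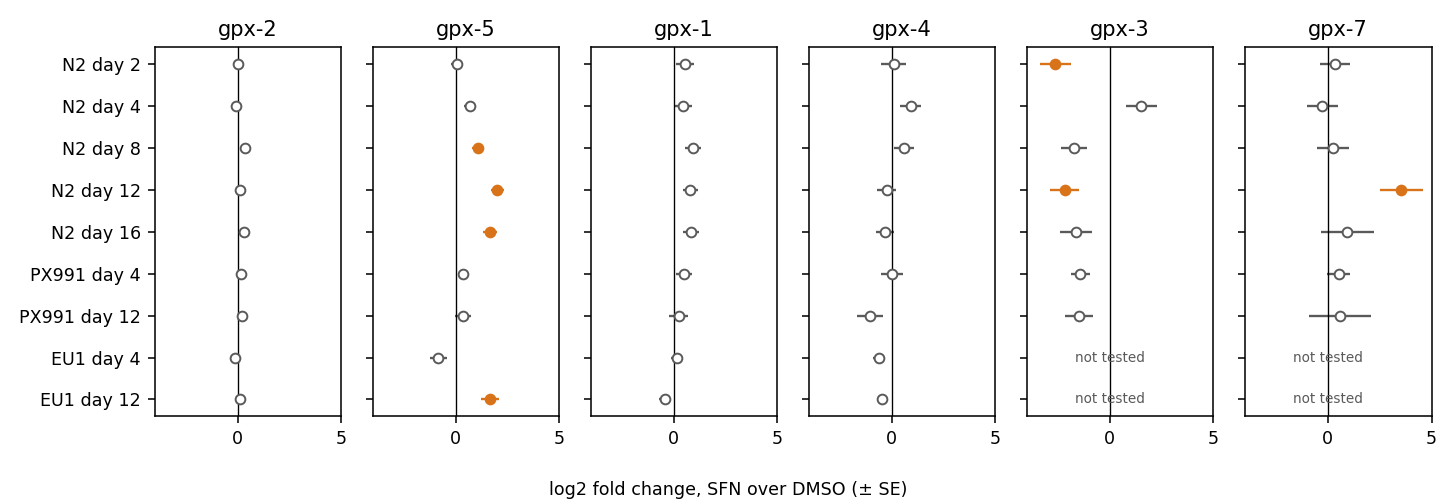
Log2 fold change of SFN over DMSO with its SE (horizontal bars) for the 6 tested members in the 9 SFN comparisons. Filled points passed adjusted p of 0.05. gpx-5 passed on days 8, 12 and 16 in N2 and on day 12 in EU1, gpx-3 on days 2 and 12 in N2, gpx-7 on day 12 in N2, and gpx-2, gpx-1 and gpx-4 in none.

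Without SFN, gpx-5 and gpx-7 fell with age. The clearest series is that of trials 2 and 3, fitted together with trial as a term. gpx-5 was at 24.9 to 29.7 CPM in trial 2 and 25.5 to 43.8 CPM in trial 3 on day 2, and at 22.3 to 30.7 and 20.5 to 30.8 CPM on day 4. It was at 15.7 to 21.3 and 8.49 to 26.7 CPM on day 8, 3.53 to 7.17 and 4.55 to 8.12 CPM on day 12, and 2.85 to 6.82 and 1.40 to 7.28 CPM on day 16. The steps past the threshold lay between day 4 and day 12. The change was -0.27 ± 0.18 from day 2 to 4 (adjusted p = 0.35), -0.58 ± 0.19 from day 4 to 8 (adjusted p = 0.019) and -1.54 ± 0.21 from day 8 to 12 (adjusted p = 1.8e-07). From day 12 to 16 it was -0.27 ± 0.24 (adjusted p = 0.51). Within a single trial, the step from day 4 to 8 did not pass (-0.52, adjusted p = 0.082 in trial 2, and -0.64, adjusted p = 0.14 in trial 3), nor did it without day 8 replicate 2 of trial 3 (0.052). The step from day 8 to 12 passed in each trial alone (-1.72, adjusted p = 3e-06, and -1.36, adjusted p = 0.004).

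gpx-7 went further down. In trial 2 it had 27 to 33 counts a library on day 2 and 16 to 42 on day 4, then sums over the 4 libraries of 20 on day 8, 5 on day 12 and 1 on day 16. In trial 3 the sums were 106, 92, 31, 2 and 0 counts, the last of which allows up to 3. So the gene went from 5.69 ± 1.60 and 8.06 ± 1.48 CPM (SD, n = 4) on day 2 to the edge of detection. It fell by 1.59 ± 0.32 on the log2 scale from day 4 to 8 (adjusted p = 0.00018) and by 3.09 ± 0.49 from day 8 to 12 (adjusted p = 4.2e-06). From day 2 to day 16, with 228 counts against 1, the ratio was 164 (exact 95% interval 29.1 to 6510, counting error only; adjusted p = 2.1e-13).

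From day 2 to day 16, 4 members fell in the trials and none rose, where 63.6% of 10899 genes passed in either direction. gpx-5 fell by 2.66 ± 0.22 (6.32-fold, adjusted p = 3.9e-14), with a range over all alternatives of -2.76 to -2.54. gpx-1 fell by 0.70 ± 0.24 (adjusted p = 0.009), but not in trial 2 alone (-0.59, adjusted p = 0.13). gpx-4 fell by 0.63 ± 0.28 (adjusted p = 0.048), a call that ended under 15 of 22 alternatives and that trial 2 alone does not show (-0.18, adjusted p = 0.71). gpx-2 was at -0.20 ± 0.10 (adjusted p = 0.066), with -0.05 in trial 2 alone (adjusted p = 0.76) and -0.35 in trial 3 alone (adjusted p = 0.0061). It also passed without day 2 replicate 1 (adjusted p = 0.033) or 4 (0.021) of trial 2. gpx-3 had opposite signs in the trials, a difference that was not tested. On day 16 it was at 11.03, 2.22, 2.10 and 1.795 CPM in trial 2, and the change from day 2 was 0.66 ± 0.52 in trial 2 (adjusted p = 0.28) and -1.54 ± 0.46 in trial 3 (adjusted p = 0.006). By single steps, 0 of the 6 tested members passed from day 2 to 4 (18.4% of genes) or from day 12 to 16 (8.99%), in edgeR or DESeq2. At an unadjusted p under 0.05 there were 0 and 1. From day 4 to 8 and from day 8 to 12, gpx-5 and gpx-7 were the 2 that passed, against 28.5% and 31.8% of genes.

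**Figure D4:**
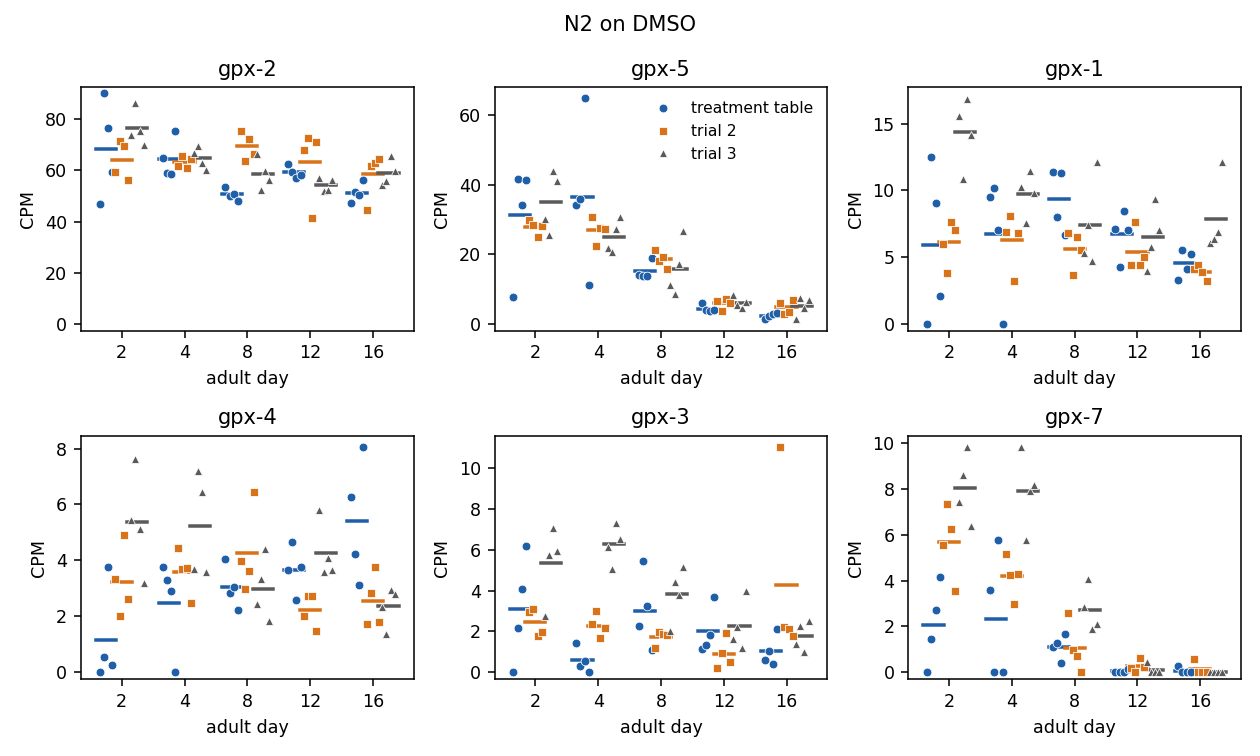
CPM of the 6 tested members in each N2 library on DMSO by adult day, for the controls of the SFN experiment (circles), trial 2 (squares) and trial 3 (triangles), with bars at group means (n = 4). gpx-5 and gpx-7 decline in all 3 sets, gpx-2 stays between 41.4 and 90.2 CPM, and gpx-4 rises in the controls of the SFN experiment but not in the trials.

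In the controls of the SFN experiment, 5 of 6 tested members passed between day 2 and day 16, 4 lower and 1 higher, where 52.7% of 12735 genes passed. gpx-5 fell from 31.2 ± 16.0 to 2.28 ± 0.835 CPM, by 3.91 ± 0.33 on the log2 scale (15-fold, adjusted p = 5.1e-14), and by 4.07 ± 0.25 without the libraries of few genes. gpx-7 fell from 40 counts to 3, a ratio of 33.7 (exact 95% interval 10.7 to 170; adjusted p = 3.6e-05). gpx-2 fell by 0.46 ± 0.12 (adjusted p = 0.0013). gpx-3 fell by 1.79 ± 0.60 (adjusted p = 0.011), though not without day 2 replicate 4 (adjusted p = 0.076). gpx-4 rose by 1.85 ± 0.51 (3.61-fold, adjusted p = 0.0022), with 0, 0.544, 3.75 and 0.259 CPM on day 2 and 6.26, 4.24, 3.14 and 8.05 CPM on day 16. Replicate 3 of day 2 lay within the range of day 16, and without it the log2 fold change was 3.76. Without the 2 libraries of few genes the changes were -0.53 ± 0.10 for gpx-2, -1.97 ± 0.60 for gpx-3, 1.77 ± 0.49 for gpx-4 and -4.85 ± 0.92 for gpx-7, all past the threshold. gpx-1, at -0.66 ± 0.40 with them (adjusted p = 0.17), then passed at -0.80 ± 0.34 (adjusted p = 0.041). In the trials gpx-4 went the other way, from day 2 means of 3.22 and 5.36 CPM to day 16 means of 2.54 and 2.37 CPM. The difference between the experiments was not tested. Age in the SFN experiment cannot be told apart from the column codes, whose numbers on day 16 are not those of day 2 within a treatment.

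On SFN, 3 of 6 tested members passed over the same span, where 31.8% of genes did. gpx-5 went from 36.8 ± 7.78 CPM on day 2 to 7.10 ± 0.784 CPM on day 16. It fell by 2.32 ± 0.31 (5.00-fold, adjusted p = 5.6e-08) and gpx-7 fell from 40 counts to 3 (ratio 21.6, exact 95% interval 6.87 to 109; adjusted p = 0.00077). gpx-4 rose by 1.42 ± 0.54 (adjusted p = 0.04), a call that ended under 7 of 14 alternatives. Markers of several cell types moved with age as well. From day 2 to 16, 4 of 4 muscle and 3 of 5 intestine markers fell in the controls, 3 of 4 and 3 of 5 on SFN, and 3 of 4 and 4 of 5 in the trials. The summed muscle markers of trial 3 went from 607 to 898 CPM on day 2 to 67.5 to 102 CPM on day 16, and the intestine markers from 434 to 660 CPM to 80.3 to 128 CPM. In trial 2, the intestine sum was 386 to 429 CPM on day 2 and 176 to 453 CPM on day 16, while the log2 fold change of gpx-5 was -2.59 ± 0.24 in trial 2 and -2.75 ± 0.35 in trial 3. Germline markers fell, 4 of 6 in the controls and in the trials but 0 of 6 on SFN. Hypodermis markers fell, 1 of 2 in the controls, 1 of 2 on SFN and 2 of 2 in the trials. Sperm markers rose 3 of 3 in the controls and 3 of 3 on SFN, and were not tested in the trials. Pharynx markers rose 3 of 3 in the trials, 1 of 3 on SFN and 0 of 3 in the controls. The part of these markers in the fall of gpx-5 and gpx-7 was not tested.

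By mean level over all 28 groups, gpx-5 was highest in N2 on SFN on day 4, at 64.8 ± 8.87 CPM, and no library of the group next in order, N2 on SFN on day 2, reached it (36.8 ± 7.78 CPM). Ranks 2 to 5, from 36.8 to 31.2 CPM, did not differ beyond their SD. They are N2 on day 2 on SFN and on DMSO, N2 on DMSO on day 4, and trial 3 on day 2. At the other end, N2 on DMSO on day 16 was lowest and its libraries lay under all 4 of the next group, N2 on DMSO on day 12 (4.34 ± 1.02 CPM). The following groups, trial 2 and trial 3 on day 16 and EU1 on DMSO on day 12, at 4.73 to 5.01 CPM, were within their SD of each other.

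In daf-16 mutant worms, gpx-5 did not pass between SFN and DMSO. In PX991 gpx-5 was at 19.5, 25.03, 14.8 and 22.3 CPM on DMSO and 35.2, 22.5, 28.2 and 19.6 CPM on SFN on day 4. On day 12 it was at 12.0, 4.16, 4.99 and 3.86 CPM on DMSO and 12.2, 9.22, 6.04 and 6.74 CPM on SFN. The groups overlapped at both ages. On day 12, with 52 counts on DMSO and 60 on SFN, only DMSO replicate 1 lay within the SFN range. The remaining DMSO libraries lay under every SFN library. The log2 fold changes were 0.37 ± 0.28 (adjusted p = 1) and 0.35 ± 0.39 (adjusted p = 0.67), the latter with a 95% interval from -0.40 to 1.11. The day 12 effect was smaller than that in N2 by 1.58 ± 0.64 on the log2 scale, which missed the threshold (adjusted p = 0.15), so the strains are not shown to differ. Strain cannot be told apart from experiment in this test. Leaving out the PX991 library on SFN of day 12 that stands apart gave 0.41 ± 0.39 for the effect.

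gpx-3 did not pass in PX991. In PX991 on day 4 it was at 6.16, 8.47, 5.21 and 9.34 CPM on DMSO and at 3.17, 3.27, 2.57 and 1.504 CPM on SFN. Each SFN library was under each DMSO library, with a log2 fold change of -1.42 ± 0.47 (adjusted p = 0.33). Fitted with these 2 groups alone, it passed (adjusted p = 0.032). On day 12 the change was -1.5 ± 0.67 (adjusted p = 0.22), with 27 and 8 counts. In all, 0 of 6 tested members passed in PX991 on day 4 or day 12, where 0.506% and 4.69% of 10073 genes passed in edgeR. There was 1 at each age with an unadjusted p under 0.05, and DESeq2 called 0.

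The fall with age was seen in PX991 too. From day 4 to day 12, gpx-5 fell by 1.58 ± 0.34 on DMSO (2.99-fold, adjusted p = 0.00078) and by 1.60 ± 0.33 on SFN (3.02-fold, adjusted p = 0.00069). gpx-7 went from 44 counts to 2 on DMSO (ratio 14.5, exact 95% interval 3.79 to 124; adjusted p = 0.0081) and from 61 to 3 on SFN (ratio 11.1, interval 3.62 to 55.3; adjusted p = 0.0054). These 2 of 6 members passed in each treatment, against 36.1% of genes on DMSO and 30.2% on SFN. Muscle markers also fell, 3 of 4 in each treatment, as did 4 of 5 intestine markers, of which the other rose on SFN. Germline markers fell too, 4 of 6 on DMSO and 2 of 6 on SFN. The part of these markers was not tested. Without replicate 3 on SFN of day 12, gpx-5 and gpx-7 still passed on SFN (adjusted p 0.00073 and 0.0063). gpx-1, at -0.54 ± 0.41 with it (adjusted p = 0.35), then passed at -1.10 ± 0.36 (adjusted p = 0.021).

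In skn-1 mutant worms, gpx-5 was higher on SFN on day 12. On day 12, the EU1 libraries ran from 1.82 CPM (median 3.69) to 11.3 CPM on DMSO and from 8.03 CPM (median 15.4) to 23.1 CPM on SFN. One DMSO library, of replicate 4, lay within the range on SFN. The log2 fold change was 1.66 ± 0.42 (3.15-fold, adjusted p = 0.01). It held under all 18 alternatives, with an adjusted p of at most 0.032. Within the collections of EU1, the ratio of means was 3.64 in replicates 1 to 3, and 2.05, 3.09 and 5.78 in replicates 4, 5 and 6. gpx-5 was the 1 of 4 tested members that passed, where 19.3% of 11170 genes did. Muscle markers rose with it, 3 of 4, and intestine markers, 3 of 5, with muscle sums of 44.7 to 214 CPM on DMSO and 131 to 335 CPM on SFN, and intestine sums of 65.3 to 151 and 92.2 to 129 CPM. Their part was not tested.

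On day 4, EU1 ran the other way. On DMSO, gpx-5 was at 6.97 CPM at the lowest, 21.1 CPM at the median and 39.7 CPM at the highest, and on SFN its 5 libraries were at 13.5, 8.22, 10.36, 16.9 and 17.9 CPM. Its log2 fold change was -0.83 ± 0.41 (adjusted p = 0.37), with ratios of 0.791, 0.438, 0.470 and 0.450 in the 4 collections, where 0.251% of genes passed and 0 of 4 members in edgeR. There was 1 at an unadjusted p under 0.05, and DESeq2 called 0. This effect was lower than that in N2 at the same age by 1.54 ± 0.49 (adjusted p = 0.038; 9.6% of 12589 genes passed), a difference that any of 11 libraries could end (adjusted p 0.05 to 0.13 without them, 3 EU1 SFN, 2 EU1 DMSO, 3 N2 SFN and 3 N2 DMSO libraries). Among the 11 is N2 DMSO replicate 4, the library of few genes (0.076 without it). Strain cannot be told apart from experiment here either. Ribosomal RNA took 36.7% of counts on DMSO and 47.9% on SFN in replicate 3 of EU1 on day 4. It took 4.28 to 11.9% in the remaining EU1 libraries of that day. The SFN library of replicate 3 showed 9412 genes at the common depth, the fewest in EU1. Without that library the difference from N2 had an adjusted p of 0.065. The part of ribosomal RNA was not tested. On day 12 the effect in EU1 differed from that in N2 by -0.32 ± 0.52 (adjusted p = 0.8, 95% interval from -1.33 to 0.69).

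Of 6 members, 0 passed in edgeR or DESeq2 on day 12, with 2 at an unadjusted p under 0.05. For gpx-3 the difference between the strains on day 12 was 3.19 ± 0.91 (adjusted p = 0.052; 1.45% of genes passed), as it was lower on SFN in N2 and at 0.215 to 1.19 CPM on DMSO and 0.330 to 2.60 CPM on SFN in EU1. It did not pass, but did without 1 of 5 libraries (adjusted p 0.026 to 0.045) or with no filter on low counts (0.028). For PX991 against N2, 0 of 6 members differed in SFN effect on day 4 (0.254% of genes) or day 12 (3.92%) in edgeR. There was 1 at each age with an unadjusted p under 0.05, and DESeq2 called gpx-3 on day 4 (adjusted p = 0.05 after rounding) and 0 on day 12.

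**Figure D5:**
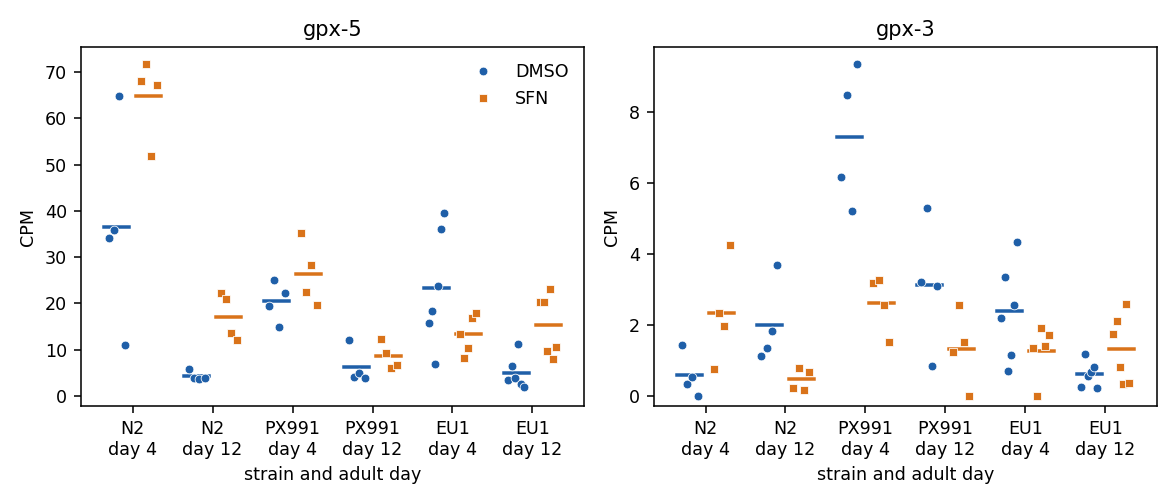
CPM of gpx-5 and gpx-3 in each library of N2, PX991 and EU1 on days 4 and 12, on DMSO (circles) and SFN (squares), with bars at the group means (n = 4, and 5 or 6 in EU1). On day 12 gpx-5 is higher on SFN in N2 and EU1, and gpx-3 in PX991 on day 4 stands highest of all groups on DMSO, at 7.29 CPM.

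Between day 4 and day 12 in EU1 on DMSO, gpx-5 fell by 2.33 ± 0.43 (5.03-fold, adjusted p = 0.00017) and gpx-4 fell by 0.88 ± 0.26 (adjusted p = 0.0081), 2 of 4 tested members where 46% of genes passed. On SFN, gpx-5 changed by 0.15 ± 0.42 (adjusted p = 0.81, 95% interval from -0.67 to 0.97). Only gpx-4 passed there, by a hair (-0.71 ± 0.28, adjusted p = 0.05 after rounding; 34.3% of genes), and the call was lost under 13 of 17 alternatives, among them a block for replicate (adjusted p = 0.064). gpx-7 had 42 counts on day 4 and 4 on day 12 in EU1 on DMSO and 77 and 11 on SFN, and was too low for the filter in the fit of EU1 alone, as was gpx-3. Muscle markers fell 3 of 4 on DMSO and 0 of 4 on SFN, and intestine markers 5 of 5 and 3 of 5. Their part was not tested.

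The 2 mutant strains were counted in the same table and differed on DMSO in 1 of 6 tested members, gpx-3. It was lower in EU1 than in PX991, by 1.58 ± 0.51 on day 4 (2.98-fold, adjusted p = 0.035; 12.9% of genes passed) and by 2.43 ± 0.63 on day 12 (5.39-fold, adjusted p = 0.0073; 16.4%). On DMSO in EU1 it ranged from 0.697 (median 2.37) to 4.32 CPM on day 4, under the lowest PX991 library at 5.21 CPM. On day 12 it ranged from 0.215 (median 0.609) to 1.19 CPM in EU1, against 3.21, 5.30, 0.831 and 3.09 CPM in PX991. The day 4 call was lost under 9 of 14 alternatives and the day 12 call without PX991 replicate 2 (adjusted p = 0.06). On day 12, germline markers (4 of 6) and eggshell markers (2 of 2) were higher in EU1, and intestine (2 of 5), pharynx (2 of 3) and neuron markers (1 of 5) lower. On day 4, 1 of 5 intestine markers was higher. The part of these markers was not tested. Strain cannot be told apart from time of collection here.

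A list of 30 other genes of peroxide and glutathione metabolism was set beside the family. It holds superoxide dismutases, catalases, peroxiredoxins, thioredoxins, glutaredoxins and the enzymes that make and reduce glutathione, with the regulators skn-1 and daf-16. In N2 on SFN, 0 rose and 2 fell of 27 tested on day 2, 1 rose and 1 fell on day 4, and 1 rose and 1 fell on day 8. On day 12, 4 rose and 1 fell, and on day 16, 5 rose and 2 fell. The shares of all genes that passed at these ages were 4.33%, 10.3%, 3.53%, 18.8% and 19.3%, and on day 12 the list's 5 of 27 is near that background. The median log2 fold change of the list was 0.03 on day 12 and 0.09 on day 16, beside 0.00 and -0.01 over all genes. On day 2, the peroxiredoxin prdx-2 fell by 0.38 ± 0.10 (adjusted p = 0.022) and the glutaredoxin glrx-10 by 0.77 ± 0.23 (adjusted p = 0.046), and prdx-6 was at -0.52 ± 0.17 (adjusted p = 0.072). On day 4, daf-16 rose by 0.48 ± 0.11 (adjusted p = 0.0033) and prdx-6 fell by 0.69 ± 0.18 (adjusted p = 0.0086), while the catalase ctl-2 was at 0.70 ± 0.24 (adjusted p = 0.055). On day 8, the thioredoxin trx-3 fell by 3.22 ± 0.45 (adjusted p = 2.3e-06) and sod-1 rose by 0.41 ± 0.12 (adjusted p = 0.045), while gcs-1, which starts glutathione synthesis, was at 0.23 ± 0.12 (adjusted p = 0.6). On day 12, trx-3 fell by 4.04 ± 0.42 (adjusted p = 2.7e-10), while sod-1, the cytosolic copper and zinc superoxide dismutase, rose by 0.54 ± 0.12 (adjusted p = 0.00048) and sod-3, a mitochondrial manganese one, by 2.40 ± 0.60 (adjusted p = 0.0022). On day 16, the genes with the smallest adjusted p were the catalases ctl-2 (1.90 ± 0.21, adjusted p = 1.1e-08) and ctl-1 (1.67 ± 0.38, adjusted p = 9e-04) and msra-1, a methionine sulfoxide reductase (1.85 ± 0.35, adjusted p = 7.3e-05).

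In PX991 on SFN, 0 of 24 genes of the list passed on day 4 and 1 of 24 rose on day 12, ctl-2 by 1.25 ± 0.25 (adjusted p = 0.0047). Next were sod-4 at -0.72 ± 0.22 (adjusted p = 0.068) and gsr-1, glutathione reductase, at 0.32 ± 0.14 (adjusted p = 0.19). In EU1, none passed on day 4, while 2 rose and 3 fell of 27 on day 12, near the 19.3% of all genes that passed. Among them were trxr-1, the thioredoxin reductase (-0.42 ± 0.08, adjusted p = 0.0015), trx-3 (-1.89 ± 0.38, adjusted p = 0.0019) and gss-1, glutathione synthetase (0.34 ± 0.11, adjusted p = 0.028). With age on DMSO from day 2 to 16, 8 rose and 5 fell of 26 in the trials, where 63.6% of all genes passed. msra-1 fell by 3.87 ± 0.18 and gss-1 by 0.89 ± 0.08, while sod-4, an extracellular superoxide dismutase, rose by 2.36 ± 0.20, with adjusted p from 5.7e-22 to 1.2e-12. In the controls of the SFN experiment 6 rose and 12 fell of 27, where 52.7% of all genes passed, led by trx-3 (6.18 ± 0.58), msra-1 (-3.04 ± 0.35) and trxr-1 (0.92 ± 0.13).

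Over the 28 group means of log2 CPM, the genes most like gpx-5 outside the family were F13H8.3 (Pearson r = 0.968), F46F2.3 (0.961) and clec-1 (0.960). Those most like gpx-7 were cest-10 (0.966), drd-5 (0.958) and C18A11.3 (0.952). For gpx-4 they were Y55F3AM.21 (0.846), T08D2.5 (0.760) and Y116A8C.25 (0.754), and for gpx-1 Y43F8B.24 (0.829), Y54G2A.52 (0.827) and linc-15 (0.812). For gpx-3 they were osr-1 (0.729), lon-2 (0.677) and K09C4.1 (0.676), and for gpx-2 fbxa-74 (0.705), B0310.1 (0.684) and F44B9.2 (0.683). Among the members themselves, the pair with the highest r was gpx-5 and gpx-7 (0.789), followed by gpx-2 and gpx-5 (0.635). The neighbours gpx-3 and gpx-5 had an r of 0.202. The groups share ages, strains and libraries, so these are descriptions and carry no p.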

How the data were processed

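Libraries were made from whole worms with the KAPA mRNA HyperPrep kit, per the labels' protocols. The authors deposited 3 tables of raw read counts for 46926 genes. Per the submitters' processing notes, counting used featureCounts of Subread 2.0.2 on WBcel235. Per the file headers, the N2 table with SFN was counted over exons of Ensembl release 108 without strand and without multi-mapped reads. The options for the other 2 tables and the aligner are not given in the sources used here. Gene symbols and positions came from Ensembl release 115 (46926 of 46926 IDs matched). No gene or protein sequence is used here, and motif searches of promoters were not made.

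Counts were tested with edgeR 4.0.16 (R 4.3.3; filterByExpr, TMM, robust quasi-likelihood F test, Benjamini-Hochberg over all genes tested), with the N2 experiment with SFN, trials 2 and 3, PX991 and EU1 each fitted apart, all groups in the fit, trial as a term for trials 2 and 3, and collection as a term for EU1. Differences between strains came from joint fits. SEs were the log2 fold change divided by the root of F. CPM and RPKM used one TMM scaling over all libraries. The test was checked on simulated counts. Alternatives were RLE scaling, DESeq2 1.42.0, no filter, at least 10 counts in 75% of libraries, each library left out, a replicate block, only 2 groups in the fit, no collection term, and each trial alone. Leaving out the 2 libraries of few genes was chosen after seeing the data. All 8 members are described, the 3 genes of the peroxide list with the smallest adjusted p are named in the SFN comparisons where any passed and over days 2 to 16 on DMSO, and the 3 genes most correlated with each tested member over group means of log2(CPM + 0.5). The members and lists were chosen with earlier results of these data known. Of 199 pairs of replicates, 0 were identical. The labels call replicates biological and say no more on separate cultures, so p-values measure the spread between these libraries. Replicate numbers of EU1 paired the libraries (correlation of deviations from group means 0.11 to 0.24 on day 4 and 0.13 to 0.44 on day 12, every pair over 0.1), and those of N2 and PX991 did not.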

Additional observations from a re-analysis of the deposited data

Results flagged for a closer look

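The SFN effect on gpx-5 differed between ages, and on day 4 between EU1 and N2, in tests of the difference itself. In N2 it was larger than on day 2 by 1.94 on the log2 scale on day 12 and by 1.58 on day 16, ages at which exposure had also lasted longer. The column codes differed between these ages and day 2 as well. In EU1 it was lower than in N2 on day 4, with a difference of -1.54 that was lost under 11 of 24 alternatives, each leaving out 1 library. Strain and experiment cannot be told apart there, and the difference between PX991 and N2 did not pass at either age.

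Of 157 combinations of member and group with a mean of at least 5 counts a library, 14 had a library far from the rest of its group by Dixon's test at the 95% level. Chance flags about 1 in 20 groups. For gpx-5 the libraries were the highest of N2 on DMSO on day 8 (replicate 4, 18.8 CPM) and day 12 (replicate 1, 5.85 CPM), and of PX991 on DMSO on day 12 (replicate 1, 12.0 CPM). For gpx-1 they were the highest of EU1 on SFN on day 4 (replicate 2, 10.8 CPM), of trial 3 on day 16 (replicate 4, 12.1 CPM) and of PX991 on SFN on day 12 (replicate 3, 22.6 CPM, the library that also stands apart in depth and genes). For gpx-2 they were the lowest of EU1 on SFN on day 12 (replicate 4, 35.0 CPM), of trial 2 on day 12 (replicate 3, 41.4 CPM) and of trial 2 on day 16 (replicate 1, 44.7 CPM). The last of these libraries was also the highest for gpx-3 (11.03 CPM). The other gpx-3 value was the lowest of trial 2 on day 8 (replicate 1, 1.195 CPM). gpx-4 was high in N2 on DMSO on day 2 (replicate 3, 3.75 CPM), gpx-6 low in trial 2 on day 4 (replicate 3, 0.372 CPM) and gpx-7 high in EU1 on DMSO on day 4 (replicate 2, 5.03 CPM).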

How the results depend on the processing

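Of 896 values of 52 member results that passed in at least 1 fit, 781 kept their side of the threshold, 78 lost a call, 35 gained one and 2 changed sign. Both were of gpx-3, from day 2 to 16 in trial 2 alone (0.66) and from day 12 to 16 in trial 3 alone (-0.28), and neither had passed in both trials together.

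The number of members past the threshold moved as follows. With no filter on low counts it was 0 in place of 1 for SFN in N2 on day 2 and for EU1 against PX991 on day 4, and 1 in place of 0 for the SFN effect of EU1 against N2 on day 12. It was also 3 in place of 2 for age in EU1 on DMSO, 2 in place of 3 for days 2 to 16 in N2 on SFN, and 6 in place of 5 in the controls, where gpx-8 entered. With the strict filter it was 0 in place of 1 for N2 on day 2 and for EU1 against PX991 on both days, and 1 in place of 3 for N2 on day 12. The same filter gave 1 in place of 2 for age in PX991 on DMSO and on SFN and for days 4 to 8 and 8 to 12 in the trials, 3 in place of 5 for days 2 to 16 in the controls, 2 in place of 4 in the trials and 2 in place of 3 in N2 on SFN. It leaves fewer members tested. DESeq2 gave 2 in place of 1 in N2 on days 8 and 16, 1 in place of 0 in N2 on day 4 and for PX991 against N2 on day 4, 3 in place of 1 for EU1 against N2 on day 4, 0 in place of 1 for age in EU1 on SFN, and 3 in place of 4 for days 2 to 16 in the trials. RLE scaling gave 2 in place of 1 in N2 on day 8 and for EU1 against N2 on day 4, and 0 in place of 1 for age in EU1 on SFN. With only the 2 groups in the fit it was 3 in place of 1 in N2 on days 8 and 16, 0 in place of 1 on day 2, and 1 in place of 0 in PX991 on day 4. Without the 2 libraries of few genes it was 2 in place of 1 on days 8 and 16, and 6 in place of 5 for days 2 to 16 in the controls. Trial 2 alone gave 1 in place of 0 for days 12 to 16, 2 in place of 4 for days 2 to 16, where trial 3 alone gave 6, and each trial alone 1 in place of 2 for days 4 to 8. Without the collection term, age in EU1 on SFN gave 0 in place of 1. The cause of these changes was not tested, beyond the number of members or libraries in the fit.

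With the replicate number as a block, the count for age in EU1 on SFN was 0 in place of 1, and in the trials over days 2 to 16 it was 3 in place of 4, as gpx-4 missed the threshold (-0.62, adjusted p = 0.057). It changed no other call of a member. gpx-5 in EU1 on day 12 was at 1.64 under the block.

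Leaving out 1 library at a time gave 0 to 1 members in N2 on days 2, 4 and 8, 2 to 3 on day 12 and 1 on day 16. It gave 1 to 2 for the effect on day 12 against day 2, 0 to 1 for day 16 against day 2, 0 to 1 for EU1 against N2 on both days, and 0 to 1 for EU1 against PX991 on both days. For age it gave 2 to 3 in EU1 on DMSO, 0 to 1 in EU1 on SFN, 1 to 3 in PX991 on SFN, 3 to 5 in the trials and 2 to 3 in N2 on SFN over days 2 to 16, 1 to 2 over days 4 to 8 and 0 to 1 over days 12 to 16.

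Counts over all genes moved by more than 1.5 times in several comparisons. SFN in N2 called 551 genes on day 2 (28 to 1145 over alternatives other than leaving out 1 library), 1311 on day 4 (41 to 2313), 449 on day 8 (324 to 1287), 2396 on day 12 (2225 to 4171) and 2463 on day 16 (2154 to 3699), with 2 groups in the fit the lowest on days 2 and 4 and the highest on days 8 and 12. The day 16 against day 2 effect called 1003 (934 to 1697). PX991 called 51 on day 4 (15 to 189) and 472 on day 12 (163 to 712), and EU1 28 on day 4 (12 to 449). Differences from N2 called 32 (15 to 208) and 494 (430 to 909) in PX991 and 1209 (1143 to 1904) and 182 (up to 545) in EU1 on days 4 and 12. Leaving out 1 library gave 183 to 665 genes for N2 on day 2, 755 to 2167 on day 4 and 270 to 454 on day 8. It gave 31 to 41 for PX991 on day 4, and 10 to 107 and 1205 to 2221 (2155 with all) for EU1 on days 4 and 12. For the differences from N2 it gave 7 to 310 and 174 to 659 in PX991, and 610 to 2091 and 55 to 434 in EU1. For EU1 against PX991 it gave 958 to 1784 (1514 with all) on day 4 and 805 to 1922 (1921) on day 12, and for days 12 to 16 in the trials 649 to 1143. In the trials, a single trial called as few as 1148, 1711, 2041 and 516 in place of 2004, 3102, 3468 and 980 over the 4 steps of age. Depth limits gpx-3, gpx-6, gpx-7 and gpx-8, with medians of 7, 2, 3 and 2 counts a library.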
